A study of Mus musculus with 6 samples.

Results

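The proteasome genes were taken as every gene whose symbol follows the Psm naming scheme with a letter from a to g and a number. This rule selected 49 of the 35976 named genes and 91 of the 114412 transcripts in the deposited count matrix. The 49 genes held 8 genes of the 20S alpha ring, 7 constitutive genes of the 20S beta ring, 4 immune or thymic beta genes, 6 ATPases and 11 other subunits of the 19S particle, 7 assembly chaperones, and 6 activators or inhibitors.

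The proteasome is the protease that breaks down proteins tagged with ubiquitin. Its barrel, the 20S core, is built of stacked alpha and beta rings. Proteins are cut inside the beta rings at the chymotrypsin-like, trypsin-like and caspase-like sites of the beta5, beta2 and beta1 subunits. The 19S particle sits on the ends of the barrel, where it binds ubiquitin, removes it and threads the unfolded protein into the core with a ring of ATPases. Cells that respond to interferon gamma swap the catalytic subunits for immune forms, and meiotic germ cells use an alpha subunit of their own. When proteasome activity falls short, the transcription factor NFE2L1 is known to raise the proteasome genes together.

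The data were strand-specific RNA-seq of whole mouse ovaries at E15.5 (embryonic day), when oocytes are entering and passing through meiotic prophase. Pregnant C57Bl6j mice received either panobinostat (PB), an inhibitor of histone deacetylases, at 5 mg/kg from E6.5 to E15.5, or the vehicle of DMSO and water, so that the ovaries were exposed in utero. The sample labels give this dose per day, whereas the methods of the study give it on alternate days. There were 3 control pools and 3 PB pools, each a library from pooled ovaries. The labels state 4 ovaries per pool, the series description 6 to 8, and the methods of the study a larger minimum. The series description also words the control libraries as coming from exposed mice, and the groups used here follow the sample titles. Nothing in the labels says whether the ovaries of a pool came from 1 litter, so p-values measure the spread between these pools.

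Each pool held between 97165644 and 125985399 counts, of which the 49 genes took 0.465%, 0.453% and 0.468% in control and 0.468%, 0.456% and 0.466% in PB. Markers of pregranulosa cells such as Foxl2 and of germ cells such as Ddx4 and Dazl were well detected in all pools, and no gene of the marker lists used below was at 0 in all pools. Of the 19437 genes tested, 3 were called, meaning that they changed at least 2-fold at an FDR (the Benjamini-Hochberg adjusted p-value over all genes tested with the edgeR quasi-likelihood test) of at most 0.05. That is 0.0154% of the genes, and 5 genes, or 0.0257%, reached this FDR at any fold change.

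The first question was how much of each subunit the embryonic ovary makes. Levels were compared between genes as TPM, which divides counts by exon length and scales every pool to the same total.

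**Figure D1:**
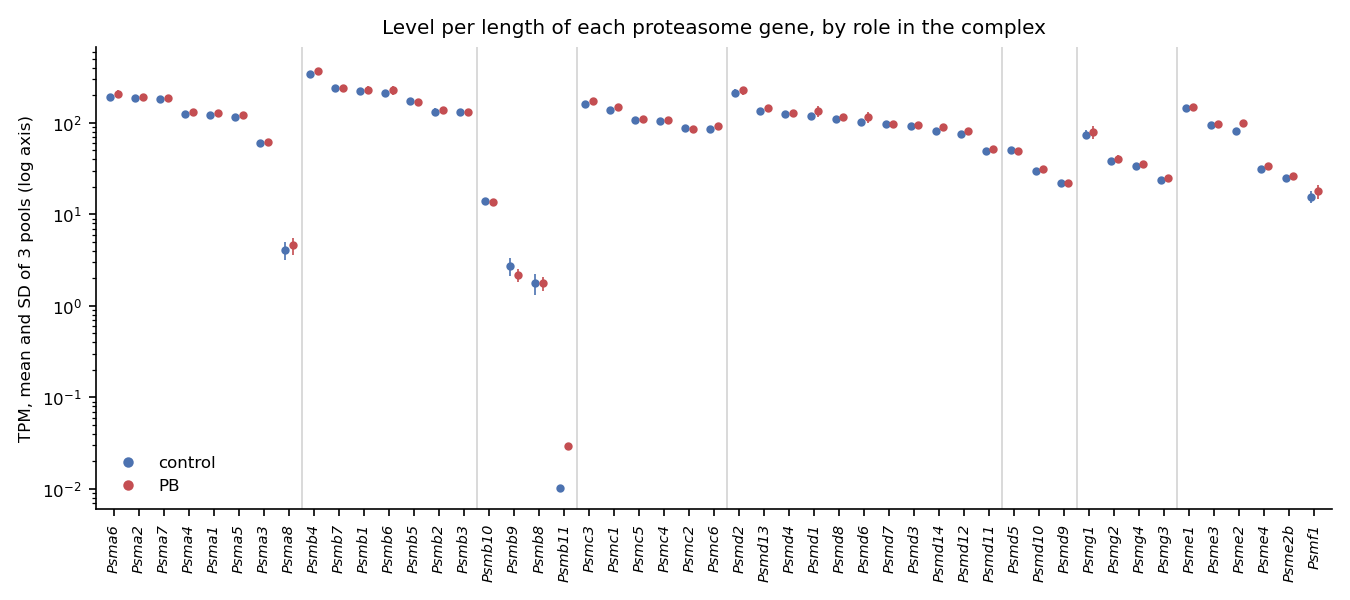
Level per exon length (TPM, log axis) of the 49 proteasome genes, as the mean of 3 control pools (blue) and 3 PB pools (red) with SD bars, in blocks by role. Psmb11 had no counts in 2 control pools and is drawn without a bar. The germline gene Psma8 and the immune genes Psmb8, Psmb9 and Psmb10 sit far below the other ring subunits in both groups.

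The constitutive beta subunits were the most abundant role, with a median of 211 TPM in control. Psmb4, the beta7 subunit, stood first of all 49 genes at 345 ± 20.6 TPM (SD, n = 3). Psmb7, the subunit with the trypsin-like site, followed at 238 ± 10.1 TPM, and Psmb1, the beta6 subunit, at 224 ± 9.29 TPM. The values of these last 2 genes lay within their spread of each other. Psmb6, which carries the caspase-like site, had 211 ± 14.7 TPM and Psmb5, which carries the chymotrypsin-like site, 173 ± 12.5 TPM.

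The alpha ring had a median of 123 TPM, and 7 of its 8 genes lay between 59.7 TPM for Psma3 and 192 TPM for Psma6. The 6 ATPases, Psmc1 to Psmc6, were even, between 85.7 TPM for Psmc6 and 160 TPM for Psmc3. The other 19S subunits ranged from 49.7 TPM for Psmd11 to 214 TPM for Psmd2, the scaffold that receives ubiquitin-binding proteins. The chaperones that build the complex but leave it were lower. The 20S chaperones Psmg1 to Psmg4 had a median of 36.3 TPM, and the 19S chaperones Psmd5, Psmd9 and Psmd10 a median of 29.7 TPM.

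Among the activators, Psme1 and Psme2, which form the interferon-induced PA28 cap, had 147 ± 2.38 and 82.3 ± 2.53 TPM in control. Psme3, the nuclear PA28 gamma, had 95.9 ± 1.26 TPM, and Psme4, the PA200 activator that binds acetylated histones in germ cells, 31.5 ± 2.67 TPM. Psme2b, a near copy of Psme2 on another chromosome, had 25.1 ± 0.616 TPM. Reads of such copies can be split or shared by the aligner, so the values of this pair are uncertain. Apart from the restricted ring subunits, the inhibitor Psmf1 was the lowest member at 15.6 ± 2.34 TPM.

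The second question was whether PB changed the levels of these genes. Of the 49 genes, 48 passed the filter on low counts, and none of the 48 was called with edgeR or with DESeq2. At an unadjusted p under 0.05, 3 of the 48 genes passed, all 3 lower in PB, where 4.47% of all genes tested passed in either direction and 2.43% passed as lower. The smallest FDR of a proteasome gene was 0.888 with the edgeR test. Leaving out control 1 left 1 gene at an unadjusted p under 0.05, and leaving out PB 2 gave 8, with none called in either case.

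**Figure D2:**
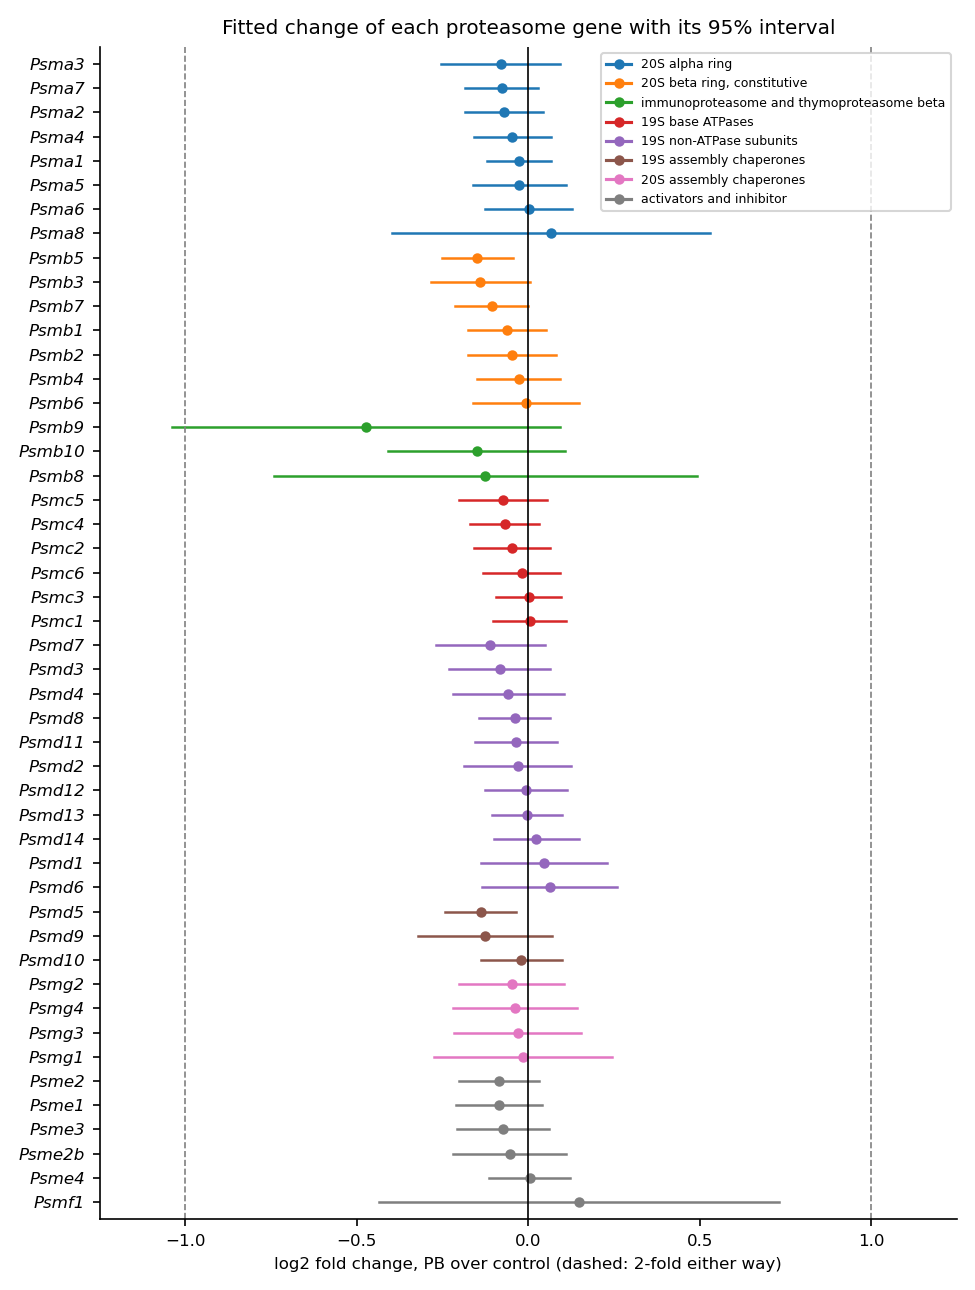
Fitted log2 fold change of PB over control for the 48 proteasome genes tested (points) with 95% intervals (lines), coloured by role. The dashed lines mark a 2-fold change either way. Of the 48 intervals 47 lie within these lines, and the interval of Psmb9 crosses the left one.

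The intervals were narrow. The 95% interval of the fold change lay within 1.25-fold either way for 43 of the 48 genes, where 41.1% of all genes tested had such an interval. It lay within 1.5-fold for 45 genes (61.2% of all genes tested) and within 2-fold for 47 genes (76.5% of all genes tested). The exceptions at 1.5-fold were the sparsely or unevenly expressed Psmb8, Psmb9 and Psmf1. The spread between pools was likewise small. The median coefficient of variation of the 48 genes was 2.86% in control and 4.32% in PB, against 8.03% and 10.4% over all genes tested. The proteasome genes are highly expressed, and lowly expressed genes carry more counting error, so these values describe the members and were not tested.

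By the sign of the fitted value, 39 of the 48 genes were lower in PB and 9 were higher, where 49.3% of all genes tested were lower. The median log2 fold change was -0.047, against 0.0020 over all genes tested. The count of lower genes depended on the scaling of the libraries. TMM, which sets the libraries level on the bulk of genes, gave the 39 genes above. Scaling by library totals alone put the median of all genes at 0.040 and of the proteasome genes at -0.0077, with 27 of the 48 lower. Relative to the median of all genes, 41 of the 48 lay below it under TMM, under DESeq2 size factors and under library totals. In TPM, which was not tested between the groups, most proteasome genes had a higher mean in PB than in control. The sign of the change therefore depended on the measure, whereas the place below the median of all genes held under each scaling of the counts. No median of all genes in TPM is given here, so the TPM means do not place the proteasome genes relative to other genes.

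Summed over the 49 genes, the level in CPM (counts scaled to library size with TMM factors) was 4907, 4891 and 4828 in control and 4755, 4671 and 4816 in PB. The sum was 4875 ± 41.6 in control and 4747 ± 72.9 in PB (SD, n = 3), and every PB pool lay below every control pool. On the share of all counts given above, the groups overlapped. Since these are whole ovaries, fewer cells of a type and less RNA per cell cannot be told apart in any of these values.

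Gene by gene, 6 of the 48 genes had every PB pool below every control pool in CPM, where 5.62% of all genes tested did so, and no proteasome gene had every PB pool above, where 5.1% of all genes did so. The 6 genes were Psma7, Psmb5, Psmb7, Psmb9, Psmc4 and Psmd5. In TPM the means of Psma7, Psmb7 and Psmc4 were higher in PB than in control, and those of Psmb5, Psmb9 and Psmd5 were lower. Psma7, the alpha4 subunit, had 121, 123 and 118 CPM in control and 111, 117 and 116 CPM in PB. Psmc4, the ATPase Rpt3, had 100.1, 102 and 104 CPM in control and 97.5, 95.8 and 99.0 CPM in PB. In both genes the gap between the groups was smaller than the range within PB.

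Psmb5, the chymotrypsin-like subunit and the target of the drug bortezomib, had 104.6, 100.7 and 104.3 CPM in control and 90.8, 93.8 and 94.7 CPM in PB. The groups were separated by more than the range within either of them. Its fitted log2 fold change of -0.15 ± 0.043 (SE) had an unadjusted p of 0.012 and an FDR of 0.888 with edgeR. Its assembled locus also holds the microRNA gene Mir686.

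Psmd5, an ATPase chaperone of the 19S base, had 70.9, 70.8 and 71.4 CPM in control. It had 66.2, 63.3 and 63.9 CPM in PB. The groups did not overlap, and the log2 fold change was -0.14 ± 0.043 (SE), the unadjusted edgeR p 0.016 and the edgeR FDR 0.888.

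Psmb7, the trypsin-like subunit, had 161, 159 and 153 CPM in control and 143, 152 and 144 CPM in PB. The highest PB pool, PB 2, lay just below the lowest control pool. Its log2 fold change was -0.11 ± 0.044 (SE), the unadjusted edgeR p 0.050 and the edgeR FDR 0.888.

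Psmb6, the caspase-like subunit, had 156, 146 and 147 CPM in control and 148, 139 and 161 CPM in PB. The pools overlapped fully, and the log2 fold change was -0.0067 with an SE of 0.065 (edgeR FDR 0.991). Of the 3 constitutive catalytic genes, Psmb5 and Psmb7 thus had fitted values below 0 with intervals of the fold change from 0.840 to 0.969 and from 0.863 to 1.00, and Psmb6 an interval from 0.894 to 1.11.

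The highest fitted values were small or rested on uneven pools. Psmf1, the inhibitor PI31, had 28.7, 46.3 and 31.7 CPM in control and 43.7, 46.4 and 28.2 CPM in PB. One control pool and 2 PB pools were high, and the log2 fold change was 0.15 with an SE of 0.24 (edgeR FDR 0.921). Psmd6, the lid subunit Rpn7, had 94.5, 88.3 and 90.0 CPM in control and 95.9, 84.5 and 104 CPM in PB, and a log2 fold change of 0.062 with an SE of 0.082 (edgeR FDR 0.905). Its pools overlapped.

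By role, no group of genes had a called member. The constitutive beta genes had 7 of 7 fitted values below 0 and a median log2 fold change of -0.063. The alpha ring had 6 of 8 below 0 with a median of -0.036, the ATPases 4 of 6 with a median of -0.033, and the other 19S subunits 8 of 11 with a median of -0.030. The 19S chaperones had 3 of 3 below 0 with a median of -0.13, and the 20S chaperones 4 of 4 with a median of -0.035. The activators and the inhibitor had 4 of 6 below 0 and a median of -0.064.

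The sum of the 7 constitutive beta genes was 956, 931 and 924 CPM in control and 893, 872 and 921 CPM in PB. The groups did not overlap, with PB 3 just below control 3. The alpha ring summed to 767, 781 and 758 CPM in control and to 746, 736 and 753 CPM in PB, also without overlap. The ATPases summed to 711, 722 and 712 CPM in control and to 696, 705 and 704 CPM in PB, and here too every PB pool was below every control pool. As shares of all counts, without TMM factors, the groups overlapped for these 3 roles. The 19S chaperones summed to 139.8 ± 3.45 CPM in control and 129.5 ± 3.05 CPM in PB (SD, n = 3). Every PB pool was again below every control pool. As shares of all counts the groups of this role stayed apart, but only just. The lowest control share was 0.013015% in control 1, and the highest PB share 0.013013% in PB 1. None of these sums was tested. The other 19S subunits overlapped, at 1695, 1646 and 1670 CPM in control and 1656, 1599 and 1692 CPM in PB.

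Psme1, the alpha subunit of the PA28 cap, had 98.3, 102 and 94.4 CPM in control and 94.7, 94.7 and 88.9 CPM in PB, with a log2 fold change of -0.085 with an SE of 0.052 (edgeR FDR 0.888). Psme4 had 141, 134 and 142 CPM in control and 142, 133 and 143 CPM in PB, with a log2 fold change of 0.0037 with an SE of 0.049 (edgeR FDR 0.994). In both genes the groups overlapped.

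The third question was whether the tissue-restricted subunits, which take the place of constitutive ones, behaved differently. Psma8 is the meiotic alpha4s subunit that replaces Psma7 in germ cells. It had 5.02, 3.72 and 5.33 CPM in control and 5.16, 3.92 and 5.64 CPM in PB. The lowest pool of each group was number 2, and the groups overlapped. The log2 fold change was 0.067 with an SE of 0.19 (edgeR FDR 0.958). The 8 germ cell markers, of which none was called and whose median log2 fold change was -0.020, summed to 960, 814 and 977 CPM in control and 1203, 645 and 1285 CPM in PB, also lowest in control 2 and PB 2. The part of germ cell content in the Psma8 values was not tested.

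Psmb8, the immune form of beta5, had 1.05, 1.92 and 1.497 CPM in control and 1.33, 1.18 and 1.58 CPM in PB. Its counts were 103, 224 and 141 in control and 132, 121 and 184 in PB, and the groups overlapped. The log2 fold change was -0.13 with an SE of 0.26 (edgeR FDR 0.936).

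Psmb9, the immune form of beta1, had the lowest fitted value of all members. It had 134, 238 and 120 counts in control, or 1.36, 2.04 and 1.274 CPM. It had 110, 101 and 148 counts in PB, or 1.11, 0.988 and 1.273 CPM. Control 3 and PB 3 had nearly the same value, so that the groups only just did not overlap, and control 2 was far above the other pools. Its fitted log2 fold change of -0.47 ± 0.24 (SE) had an unadjusted p of 0.087 and an FDR of 0.888 with edgeR. Without control 2 it was -0.23.

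Psmb10, the immune form of beta2, was the most abundant of the immune forms at 13.8, 13.99 and 12.1 CPM in control and 11.2, 13.6 and 11.1 CPM in PB. The groups overlapped, and the log2 fold change was -0.15 with an SE of 0.11 (edgeR FDR 0.888). Psmb11, the beta5t subunit of cortical thymic epithelium, had 0, 11 and 0 counts in control and 8, 7 and 10 counts in PB. It did not pass the filter on low counts and was not tested. A count of 0 allows up to 3 counts, or 0.0305 CPM in control 1 and 0.0319 CPM in control 3, by counting error alone.

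Each restricted subunit was then set against its constitutive partner per exon length within a pool. Psma8 stood at 2.37%, 1.70% and 2.54% of Psma7 in control and at 2.67%, 1.88% and 2.79% in PB. Psmb8 stood at 0.714%, 1.36% and 1.02% of Psmb5 in control and 1.04%, 0.898% and 1.19% in PB. Psmb10 stood at 6.01%, 6.25% and 5.51% of Psmb7 in control and 5.82%, 6.21% and 5.28% in PB. The pools of both groups overlapped for these 3 ratios.

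**Figure D3:**
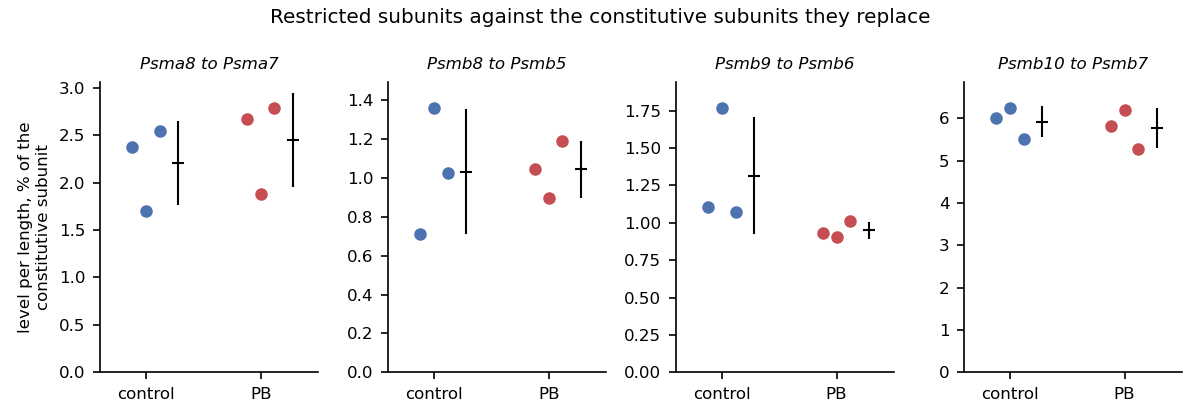
Level per length of a restricted subunit as a percentage of the constitutive subunit it replaces, in each of 3 control pools (blue) and 3 PB pools (red), with the mean and SD beside them (black). Psmb9 to Psmb6 is the only ratio whose groups did not overlap, with PB between 0.906% and 1.01%.

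Psmb9 stood at 1.11%, 1.77% and 1.07% of Psmb6 in control and at 0.932%, 0.906% and 1.01% in PB. All 3 PB pools were below all 3 control pools, and the exact two-sided permutation test gave p = 0.1, the smallest p that 3 pools against 3 allow, and 0.4 after adjustment over the 4 ratios. The mean difference of the log2 ratio was -0.43, and -0.20 without control 2. The exact p was 0.5 for Psma8, 0.9 for Psmb8 and 0.6 for Psmb10, so no ratio could be shown to differ, and with this design none could have passed 0.05.

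The immune genes were read beside the antigen presentation genes that share their induction. Of 10 such genes, none was called, 4 were higher and 6 lower by sign, and the median log2 fold change was -0.048. Tap1, which pumps peptides into the endoplasmic reticulum and lies next to Psmb9 in the genome, had a log2 fold change of -0.11 ± 0.10 (SE) and its partner Tap2 of -0.35 ± 0.18 (SE). The 8 macrophage and blood immune markers summed to between 64.1 and 70.8 CPM in control and between 58.2 and 69.1 CPM in PB, with none at 0 in all pools. Their part in the values of the immune subunits was not tested.

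The genes that control and assist the proteasome were read in the same way. Of 9 genes of the NFE2L1 pathway, none was called, 6 were lower by sign, and the median log2 fold change was -0.061. Nfe2l1 itself had 223, 218 and 221 CPM in control and 209, 215 and 204 CPM in PB. Its groups did not overlap, and its log2 fold change was -0.077 ± 0.039 (SE), the unadjusted edgeR p 0.090 and the edgeR FDR 0.888. Ddi2, the protease that activates NFE2L1, had a log2 fold change of 0.074 ± 0.053 (SE), and Vcp, which pulls it out of the membrane, of 0.035 ± 0.11 (SE).

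The list of partners that carry other names held 14 symbols, some of them an older and a newer symbol of the same gene. Of these symbols 11 were present and tested, and none was called. They include Adrm1, the ubiquitin receptor Rpn13, and Pomp, the maturation factor of the core, at log2 fold changes of -0.033 ± 0.047 and -0.0016 ± 0.068 (SE). Of 12 ubiquitin and shuttle genes, none was called and the median log2 fold change was 0.0018.

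The upstream sequences of 41 of the 49 genes were in the RefSeq promoter table of build GRCm38.p6, with 44 windows of 250 bases before and 50 bases after a start site. These sequences were searched for the letters of sites that NFE2L1 and other factors are known to bind. The letters alone do not show binding, which was not tested. The antioxidant response element core TGACNNNGC, read on both strands, was in 6 of the 44 windows (13.6%), against 12.4% of all 32851 windows in the table. The 6 genes were Psmb5, Psmb6, Psmc6, Psmd9, Psmd12 and Psme4. The ETS letters CCGGAAGT were in 22.7% of the members' windows and 3.89% of all windows, and the GC box GGGCGG in 54.5% and 35.7%. The CCAAT box was in 31.8% and 37.4%, and the interferon response letters GAAANNGAA in 15.9% and 8.56%. TTCNNNGAA was in 6.82% and 8.30%, the TATA letters TATAAA in 9.09% and 13.6%, and TGACGTCA in 0% and 1.79%. The windows were not matched for base composition. TGACNNNGC and TGACGTCA begin with the same letters.

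The 150 bases directly before the start sites of Psmb5 (chr14:54617996-54618145, minus strand), Psmb6 (chr11:70525207-70525356, plus strand) and Psmb9 (chr17:34187331-34187480, minus strand) follow, 5′ to 3′. Capitals mark TGACNNNGC in Psmb5 and Psmb6. In Psmb9 they mark GGGCGG and ATTGG, which reads CCAAT on the other strand. The match in Psmb5 begins 47 bases before the start and that in Psmb6 9 bases before it.
Psmb5: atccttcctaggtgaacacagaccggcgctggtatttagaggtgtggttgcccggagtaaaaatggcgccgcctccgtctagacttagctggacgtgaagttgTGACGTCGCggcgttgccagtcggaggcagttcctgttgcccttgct
Psmb6: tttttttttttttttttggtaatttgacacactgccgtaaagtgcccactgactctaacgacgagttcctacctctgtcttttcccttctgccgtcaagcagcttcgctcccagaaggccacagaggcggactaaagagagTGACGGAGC
Psmb9: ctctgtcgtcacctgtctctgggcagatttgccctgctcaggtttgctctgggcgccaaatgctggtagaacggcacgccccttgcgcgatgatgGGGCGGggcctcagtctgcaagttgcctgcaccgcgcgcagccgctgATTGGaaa

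Psmb5 and Psmb6 both hold the TGACNNNGC letters, and their fitted log2 fold changes were -0.15 and -0.0067. The other genes with these letters were at -0.018 (Psmc6), -0.13 (Psmd9), -0.0068 (Psmd12) and 0.0037 (Psme4). The promoter of Psmb9 held neither the TGACNNNGC nor the GAAANNGAA letters in its window.

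The fourth question was whether single transcripts of these genes changed, since the counts had been split among the transcripts of a gene. The 91 transcripts comprised 79 known ones and 12 assembled from the reads, and 26 of the 49 genes had more than 1. Of the 85 transcripts tested with edgeR 1 was called, where 0.0332% of all 51227 transcripts tested were called. At an unadjusted p under 0.05 there were 5 of the 85, where 3.56% of all transcripts tested passed. With DESeq2 3 transcripts were called, where 1.84% of all 63489 transcripts with an adjusted p were called.

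The transcript called by both tools was XR_383145.2 of Psme2, the beta subunit of the PA28 cap. It had 4385, 4761 and 3816 counts in control and 0, 0 and 0 in PB. Against a floor of 3 counts in each PB pool, this was at least 1472-fold lower in PB (FDR = 0.0238 with edgeR). The call was lost when control 1, control 2, control 3 or PB 1 was left out, with an FDR between 0.0636 and 0.215 with edgeR.

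The counts appeared in another transcript of the same gene. NM_011190.3, a protein-coding form, had 1428, 2057 and 1254 counts in control and 5267, 5549 and 6302 in PB. The groups did not overlap, the log2 fold change was 1.83 ± 0.13 (SE), and the FDR was 0.0605 with edgeR and 2.50e-24 with DESeq2. Within Psme2 it took 23.6%, 28.8% and 23.2% in control and 94.9%, 94.5% and 96.0% in PB. The gene sum had 61.6, 61.2 and 57.4 CPM in control and 55.97, 57.5 and 56.5 CPM in PB, just overlapping, with a log2 fold change of -0.085 with an SE of 0.049 (edgeR FDR 0.888).

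**Figure D4:**
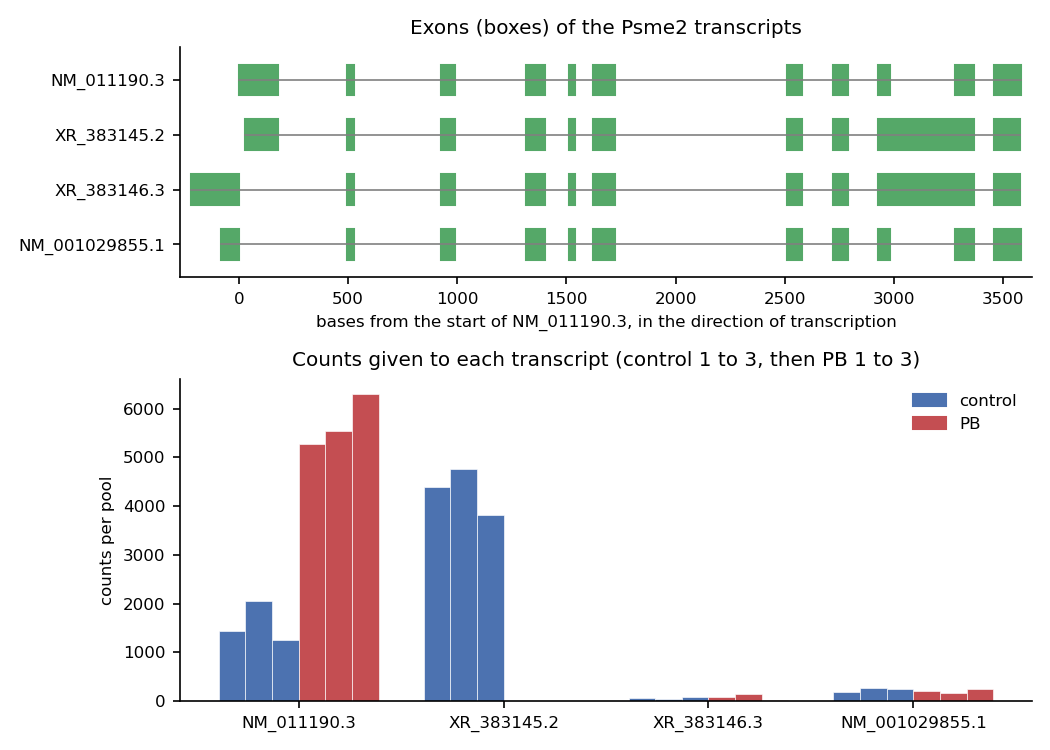
Top, exons of the 4 Psme2 transcripts in bases from the start of NM_011190.3 in the direction of transcription. Bottom, counts of each transcript in 3 control pools (blue) and 3 PB pools (red). XR_383145.2 has 3816 to 4761 counts in control and none in PB, and NM_011190.3 has 1254 to 2057 in control and 5267 to 6302 in PB.

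Psme2 lies on the minus strand of chromosome 14 in mm10. NM_011190.3 spans 55587440 to 55591021 with 11 exons and 897 bases of exon. XR_383145.2 spans 55587447 to 55590992 with 10 exons and 1160 bases. It differs from NM_011190.3 by keeping 1 intron of 299 bases, from 55587741 to 55588039, inside the coding part, and by slightly shorter ends. A further transcript, XR_383146.3, keeps the same intron behind another first exon, and had 59, 52 and 91 counts in control and 80, 152 and 21 in PB. The counts do not show how many reads lay in the intron itself, which was not tested. The TPM of Psme2 was 82.3 in control and 99.5 in PB although its CPM was not higher. Its forms differ in length, and most proteasome genes, also some with a single transcript, had a higher mean TPM in PB. The part of each in this value was not tested.

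The junction of NM_011190.3 and the intron kept in XR_383145.2 are shown because they are what tells these forms apart. They were read from GENCODE vM21 transcripts with the same splice sites, on the coding strand. In the spliced form, small letters end the upstream exon and capitals begin the next. In the kept intron, capitals mark its first and last pair of bases.
Psme2 spliced junction: aaggacacccatgtaATGGATTACCGGGCC
Psme2 kept intron: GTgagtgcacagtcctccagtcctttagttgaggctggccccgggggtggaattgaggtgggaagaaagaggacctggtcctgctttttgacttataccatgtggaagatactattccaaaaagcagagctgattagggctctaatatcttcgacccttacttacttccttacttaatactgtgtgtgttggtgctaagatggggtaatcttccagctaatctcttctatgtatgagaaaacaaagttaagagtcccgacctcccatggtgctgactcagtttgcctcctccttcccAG

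The intron follows 552 coding bases, a whole number of codons, so that reading on into it meets the first stop in frame at its codon 59. GENCODE lists a transcript with this kept intron in the class retained intron.

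Psmc2, the ATPase Rpt1, held the other transcript called with DESeq2. MSTRG.13572.1, assembled from the reads, had 42, 310 and 41 counts in control and 99, 7151 and 8414 in PB. PB 1 lay in the range of the controls, and the high values were in PB 2 and PB 3. Its log2 fold change of 5.35 ± 1.83 (SE) had an FDR of 1.00 with edgeR and of 0.0232 with DESeq2. It was 6.80 without control 2 and between 4.91 and 5.92 when any other pool was left out. The known form NM_011188.3 had 10709, 12483 and 9781 counts in control and 10165, 3853 and 3434 in PB, and the gene sum a log2 fold change of -0.047 with an SE of 0.046 (edgeR FDR 0.890). The assembled form has 14 exons and 2117 bases of exon, and the known form 13 exons and 1782 bases. On chromosome 5 of mm10, the assembled form adds an upstream exon of 61 bases, from 21783177 to 21783237. It lacks 20 bases at a splice site, from 21786650 to 21786669. These do not account for all of the difference in exon length, and the remaining differences were not traced. Where the forms differ relative to the start codon was not tested.

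Of the 26 genes with several transcripts, 7 had a transcript whose share of the gene ranged over more than 20 percentage points across the 6 pools, where 55.4% of all 13902 tested genes with several transcripts had one. Psme2 was the only one of these 7 in which the groups did not overlap, or 1 of the 26, where 4.83% of the 13902 genes had such a range without overlap.

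**Figure D5:**
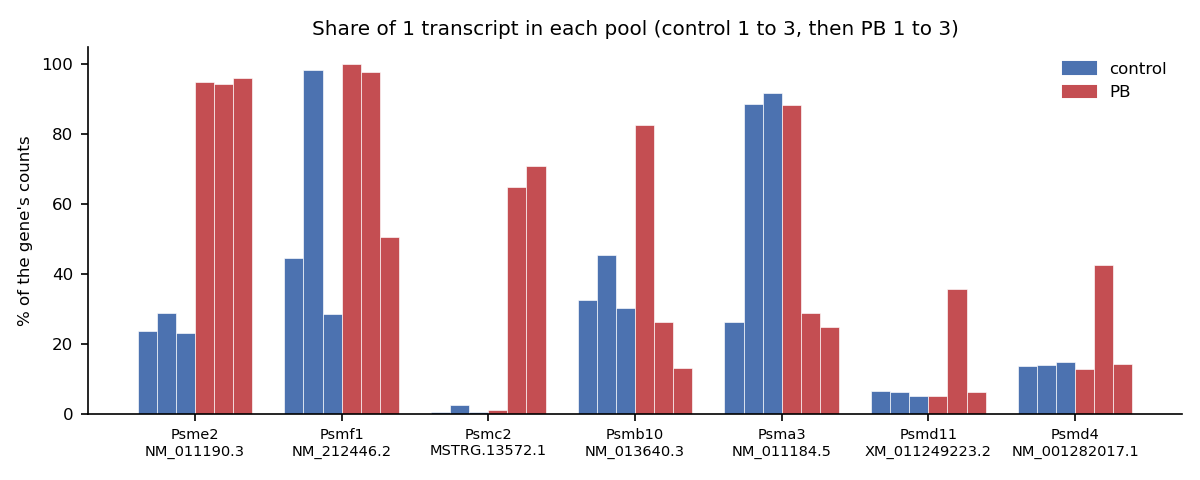
Share of the counts of a gene given to 1 of its transcripts, in 3 control pools (blue) and 3 PB pools (red), for the 7 genes with the widest range. In Psme2 the groups are apart (23.2% to 28.8% and 94.5% to 96.0%), and in the other 6 genes the groups overlap.

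In Psma3, the alpha7 subunit, NM_011184.5 took 26.4%, 88.8% and 91.9% of all Psma3 counts in control, against 88.5%, 28.9% and 24.8% in PB. High and low pools occurred in both groups. The alternative NM_001310596.1 had 5736, 859 and 523 counts in control and 696, 5062 and 7006 in PB. The forms differ by 5 bases at a splice site on chromosome 12, from 70983319 to 70983323, which are in capitals in the first sequence and missing from the second. Read from the start codon of the longer form, the first stop in frame comes after 255 codons with these bases and after 40 codons without them. GENCODE classes the transcripts with these splice sites as protein coding and as nonsense-mediated decay.
Psma3 longer form: tgtggaaaacagtagTACAGctattgggat
Psma3 shorter form: tgtggaaaacagtagctattgggat

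In Psmf1, NM_212446.2 took 44.7%, 98.6% and 28.7% in control and 100%, 97.7% and 50.6% in PB. The 3 pools with nearly all counts in this form, control 2, PB 1 and PB 2, were the 3 pools with the high gene sums given above. In Psmb10, NM_013640.3 took 32.7%, 45.5% and 30.4% in control and 82.6%, 26.4% and 12.96% in PB. Here PB 1 was high and PB 2 and PB 3 were low.

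Psmd11 and Psmd4 each had 1 pool apart, PB 2 in both. XM_011249223.2 of Psmd11, the lid subunit Rpn6, took 35.8% in PB 2 and between 5.01% and 6.35% in the other pools. NM_001282017.1 of Psmd4, the ubiquitin receptor Rpn10, took 42.7% in PB 2 and between 12.8% and 14.7% elsewhere. Most counts of Psmd11 went to an assembled form that keeps 115 bases removed as an intron in XM_011249223.2. This stretch was not compared with the other known form of Psmd11.

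Restricting the gene sums to known transcripts changed the values of genes with such assembled forms. The log2 fold change of Psmc2 was then -0.91 ± 0.48 (SE) and that of Psmd11 0.59 ± 0.50 (SE), both with an FDR of 0.917 with edgeR. Psmd13 held a 2-exon assembled transcript inside an intron that took 19.9% to 25.02% of its counts, and its value moved from -0.0041 to -0.057 without it.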

How the data were processed

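RNA-seq of 3 control and 3 PB ovary pools was used as the deposited matrix of transcript counts. Per the labels and the methods of the study, the authors used bcl2fastq 2.17.1.14, aligned directional poly(A) reads to mm10 with HISAT2 2.1.0, assembled transcripts over RefSeq with StringTie 1.3.5 and derived the counts with prepDE, so that counts are estimates split among the transcripts of a gene. The deposited comparison table supplied only gene names, positions and class codes. Its log2 fold changes, SEs, p-values and 6 columns of normalized values from DESeq2 1.30.0 were not used.

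Counts were summed by gene name. Each pool held 97165644 to 125985399 counts, of which 3.05% to 4.49% belonged to transcripts without a gene name, which entered no gene. Floors cover counting error only, whereas the intervals of fold changes include the spread between pools. Genes and transcripts were filtered with filterByExpr (minimum count 10, minimum total 15) and tested over all features with the edgeR 4.0.16 quasi-likelihood test in R 4.3.3, with TMM factors. The test was two-sided, with Benjamini-Hochberg adjustment. The biological coefficient of variation was 21.0% for genes and 98.4% for transcripts. DESeq2 1.42.0 was an alternative, and the fits were tested on simulated data. The 4 ratios were compared by exact permutation over pools with scipy 1.17.1. TPM used the exon lengths of the deposited annotation.

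Values per pool were given for the 3 largest fitted increases and decreases, every member at an unadjusted p under 0.05, the catalytic, germline and immune subunits, and transcripts called by either tool. Other genes and shares were named after their values were seen. The members and lists were chosen with earlier results of these data known. Alternatives were other scalings, filters and tools, a replicate block, known transcripts only, joining by locus and leaving out each pool. Individual values of some genes of the other lists are not reported here.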

Additional observations from a re-analysis of the deposited data

How the results depend on the processing

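No proteasome gene was called, or reached an FDR of 0.05 with edgeR or DESeq2, under any alternative tried. Scaling by library totals, chosen after seeing the data, left 0 genes at an unadjusted p under 0.05, put their median log2 fold change at -0.0077 and left 27 in place of 39 of them lower. Among those with values in the report, Psmb6 (0.031), Psmd11 (0.0017) and Psmd13 (0.034) were then above 0, in step with the median of all genes at 0.040. With known transcripts only Psmd11 was at 0.59, and without the filter Psme4 was at -0.00047.

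Leaving out 1 pool at a time gave 1 to 8 genes at an unadjusted p under 0.05, 33 to 46 genes lower, and 0 to 1 transcripts called. The log2 fold changes then ranged from -0.078 to 0.20 for Psma8, -0.067 to 0.043 for Psmb6, -0.33 to 0.10 for Psmb8, -0.023 to 0.023 for Psmd13, -0.012 to 0.14 for Psmd6 and -0.026 to 0.035 for Psme4. The log2 differences of the ratios ranged from -0.027 to 0.33 for Psma8 to Psma7, -0.18 to 0.28 for Psmb8 to Psmb5, -0.56 to -0.20 for Psmb9 to Psmb6 and -0.095 to 0.022 for Psmb10 to Psmb7. The cause was not tested.

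DESeq2 called 3 transcripts. With the replicate block 0 transcripts were called, XR_383145.2 having an FDR of 1.00 with edgeR, and 40 genes were lower with a median of -0.047. The pool numbers did not pair the pools, since deviations of same-numbered pools correlated over genes at 0.093, 0.15 and -0.018.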

Other observations

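The other marker lists had no called gene with edgeR. The 7 pregranulosa markers had a median log2 fold change of -0.0070 and summed to between 1334 and 1437 CPM in control and between 1285 and 1467 CPM in PB. The 6 endothelial markers had a median of -0.15 and sums from 326 to 359 CPM in control and from 312 to 331 CPM in PB. The 9 red blood cell markers had 9 fitted values below 0 and a median of -0.28, with sums from 15082 to 31983 CPM in control and from 18397 to 20141 CPM in PB, inside the range of the controls. The 5 mesonephros markers had a median of -0.42 with sums from 15.1 to 33.4 CPM in control and from 14.5 to 21.1 CPM in PB. Of 6 steroidogenic and adrenal markers 5 were tested, with a median of 0.11 and sums from 55.95 to 61.9 CPM in control and from 32.0 to 60.6 CPM in PB.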
